A study of Mus musculus with 4 samples.

Results

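The myogenic factors and the Mef2 genes were followed as 7 genes, the myogenic bHLH genes Myod1, Myf5, Myf6 and Myog and the MADS-box genes Mef2a, Mef2c and Mef2d. All Runx2 peaks that overlapped the body of one of these genes, widened by 20 kb on each side, by at least 1 bp were taken. They numbered 54 of 126383 peaks in the 3 lists, with 9 of 25457 in the day 0 list, 24 of 60596 in the day 9 list and 21 of 40330 in the day 28 list, and merged into 25 of 67703 regions at which peaks of any list shared at least 1 bp. The 7 genes are among 22372 protein-coding genes of GENCODE version M1.

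The chromatin came from MC3T3-E1 (subclone 4), a C57BL/6 mouse line of calvarial preosteoblasts, immunoprecipitated with Runx2 antibody M70 and sequenced while the cells proliferated (day 0), laid down matrix (day 9) and mineralized it (day 28). Differentiation from day 0 on was driven by ascorbic acid and beta-glycerophosphate. The authors pooled 2 biological replicate libraries per time point before they called peaks, so each day has a single list, differences between days carry no replicate error, and no test was made between them. The lists give binding sites and no expression, so the osteoblast identity of the line was not checked here against marker genes. The study itself followed osteoblast markers in these cells during differentiation, by staining and quantitative RT-PCR. Peaks at a muscle gene do not say whether it was transcribed.

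Runx2 is the Runt-domain factor that directs osteoblast formation, and the sequence TGTGGT is the core of the site it binds. Myod1, Myf5, Myf6 (also Mrf4) and Myog bind E-boxes as dimers with E-proteins and carry mesenchymal progenitors into skeletal muscle. Mef2 proteins join them at muscle promoters, and also act outside muscle, where Mef2c takes part in the maturation of growth plate chondrocytes. The comparison asks where and at which stage Runx2 occupied genes of this alternative mesenchymal fate, since the study names MyoD among the non-osteoblast genes that Runx2 represses.

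The sequences that follow show copies of the core under peaks at Mef2a and Mef2c, read from mm9 (NCBIM37). The first is the 101 bases around the centre of the day 9 peak 18.2 kb upstream of Mef2a (plus strand, chr7:74535894-74535994), with TGTGGT in capitals. The second is the 101 bases around the day 0 peak in intron 2 of Mef2a (plus strand, chr7:74465476-74465576), with the core on the other strand in capitals. The third is the 201 bases around the day 9 peak in intron 4 of Mef2c (plus strand, chr13:83736916-83737116), marked in the same way. Its core lies 78 bp from the peak centre, outside the central 101 bases, so it is not a core at the centre of the peak.
Mef2a upstream: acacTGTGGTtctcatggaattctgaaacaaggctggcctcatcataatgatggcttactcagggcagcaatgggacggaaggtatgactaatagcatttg
Mef2a intron 2: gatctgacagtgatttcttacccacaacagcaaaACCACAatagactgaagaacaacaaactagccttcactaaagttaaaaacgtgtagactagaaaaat
Mef2c intron 4: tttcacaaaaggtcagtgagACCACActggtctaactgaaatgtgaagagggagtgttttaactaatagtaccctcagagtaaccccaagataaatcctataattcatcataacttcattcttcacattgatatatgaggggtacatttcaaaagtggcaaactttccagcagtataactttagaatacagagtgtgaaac

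Promoters, taken as the 300 bases from 250 before to 49 after a start site, are shown for Mef2a (minus strand, chr7:74517695-74517994) and Mef2d (plus strand, chr3:87946044-87946343), the 2 members with a peak over a start site in all 3 lists. Neither holds TGTGGT on either strand, and Runx2 peaks covered both on all 3 days. Capitals in the Mef2a promoter mark a MEF2-type element, CTA, 4 bases of A or T, and TAG, which spans the annotated start site. The 66 bases from the Myf5 promoter (minus strand, chr10:106923201-106923266) hold TGTGGT in capitals and lay under no peak.
Mef2a promoter: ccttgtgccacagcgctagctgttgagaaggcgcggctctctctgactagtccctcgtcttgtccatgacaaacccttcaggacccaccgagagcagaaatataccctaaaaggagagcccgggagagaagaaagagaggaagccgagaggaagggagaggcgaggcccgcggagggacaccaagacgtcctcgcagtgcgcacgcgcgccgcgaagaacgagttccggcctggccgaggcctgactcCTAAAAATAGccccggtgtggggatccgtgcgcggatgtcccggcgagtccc
Mef2d promoter: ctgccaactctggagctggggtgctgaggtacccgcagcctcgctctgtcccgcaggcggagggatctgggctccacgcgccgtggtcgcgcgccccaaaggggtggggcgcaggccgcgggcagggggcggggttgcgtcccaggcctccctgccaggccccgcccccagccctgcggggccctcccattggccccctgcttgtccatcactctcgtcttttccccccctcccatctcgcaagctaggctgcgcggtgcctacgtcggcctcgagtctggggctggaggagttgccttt
Myf5 promoter: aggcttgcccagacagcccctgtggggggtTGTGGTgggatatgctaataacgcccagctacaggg

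Runx2 peaks lay at all 3 Mef2 genes and were few or absent at the 4 myogenic bHLH genes, whose windows are shorter. The windows of the Mef2 genes held 9, 21 and 19 peaks at days 0, 9 and 28, against 0, 3 and 2 in the windows of the bHLH genes. The Mef2 windows span 69.715 to 203.652 kb and the bHLH windows 41.87 to 43.227 kb. Per 100 kb of window, the families overlapped at days 9 and 28. At day 9 Mef2d had 12.9 peaks, Myod1 4.69, Mef2a 3.30, Mef2c 2.95 and Myog 2.35. At day 28 Mef2d had 10.0, Mef2a 4.40, Myod1 and Myog 2.35 each, and Mef2c 1.96. Myf5 and Myf6 had none. Of the 25 regions, 22 were at Mef2 genes and 3 at bHLH genes. Of the 7 members, 2 had a peak at day 0, 5 at day 9 and 5 at day 28. Among all protein-coding genes, 64.9% had a peak in such a window at day 0, 76.9% at day 9 and 71.2% at day 28.

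The day 9 count of member peaks was 2.67 times that of day 0, against 2.38 times for all peaks, and the day 28 count was 0.875 times that of day 9, against 0.666 times. With each list limited to its 25457 top-scoring peaks, the counts were 9, 13 and 14, so that day 9 still had more than day 0 but day 28 had more than day 9. In the study's summary of its libraries day 0 was sequenced most deeply, and the part of depth and of list length in the counts was not tested. Peaks are therefore ranked here only within a list, by the percentile of their score, which is the share of that list's peaks with a lower score and 50% of those tied with it.

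**Figure D1:**
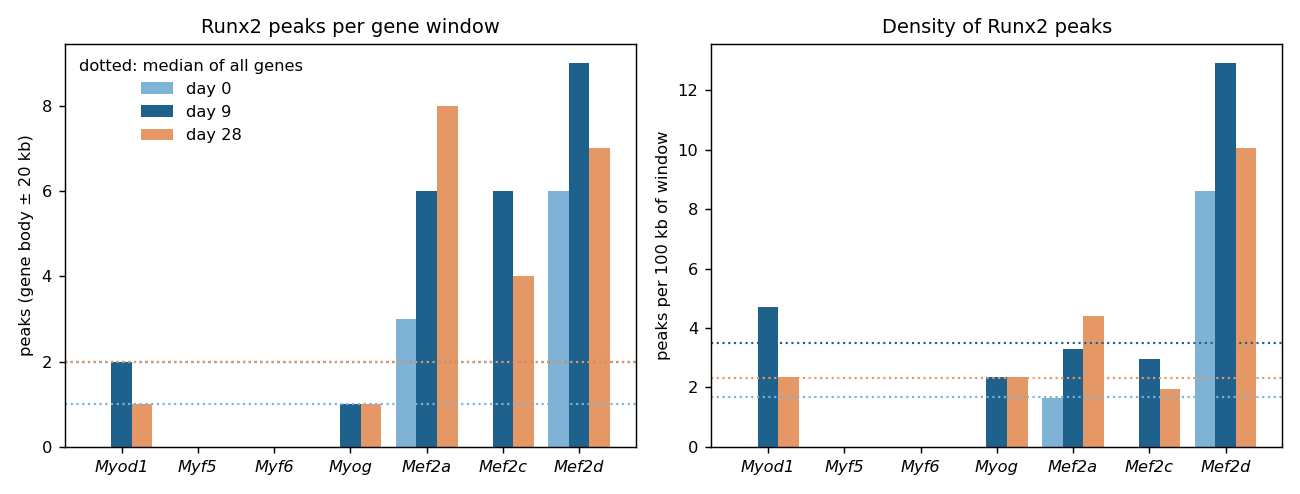
Runx2 peaks in the window of each member (left, number of peaks in the gene body ± 20 kb) and per 100 kb of window (right) at days 0, 9 and 28. Each bar is 1 pooled list with no error, and dotted lines give the median of 22372 protein-coding genes (2 peaks at both day 9 and day 28 on the left). Mef2d stands highest per 100 kb on all 3 days, and Myf5 and Myf6 have no bar.

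Mef2d had the densest Runx2 occupancy of the 7 genes. It lies on the plus strand at chr3:87946294-87976008 with 3 start sites within 0.2 kb of each other, and its 69.715 kb window held 6, 9 and 7 peaks at days 0, 9 and 28 in 8 regions. Per 100 kb this was 8.61, 12.9 and 10.0 peaks, where the median of all genes was 1.69, 3.49 and 2.33. At day 0, 95.3% of protein-coding genes had a lower density than Mef2d, 89.2% at day 9 and 92.5% at day 28. The peaks covered 6092 bp of the window at day 0, 8448 bp at day 9 and 8723 bp at day 28.

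Occupancy of Mef2d centred on its 5′ end. A region over the start sites, chr3:87945555-87947726, held 2 peaks at day 0, with scores of 489.47 (percentile 72.5) and 134.14 (percentile 16.2), and 1 peak each at day 9 and day 28, both at 3100 (percentiles 97.4 and 97.8). A score is the peak caller's p-value as a negative log10, multiplied by 10, and 192, 2699 and 1468 peaks of the 3 lists had the value 3100. Scores and percentiles of different days are set side by side here and in what follows, and no gain or loss of binding is read from them, since the lists differ in length and depth.

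Intron 1 held a further region, chr3:87949138-87950431, about 3.29 kb from the nearest start site. Its peaks scored 347.15 at day 0 (percentile 59.9), 3100 at day 9 (percentile 97.4) and 2016.91 at day 28 (percentile 91.0).

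Upstream of Mef2d, 4 regions lay within 9.85 kb. The region 3.64 kb upstream, chr3:87942086-87943215, had peaks on all 3 days, at percentiles 66.6, 80.9 and 82.1 of days 0, 9 and 28. The region 8.73 kb upstream, chr3:87936944-87938184, had peaks at day 0 (score 123.29, percentile 11.5), day 9 (1282.48, percentile 84.6) and day 28 (766.59, percentile 72.2). The other 2, centred 9.85 kb and 1.55 kb upstream, had peaks at days 9 and 28 only.

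The remaining Mef2d regions lay toward and past the 3′ end. A region 35.3 kb from the nearest start site, chr3:87981025-87982535, covered the start of the lincRNA 1700113A16Rik, which is transcribed from the minus strand and overlaps the end of Mef2d. It held the highest-ranking day 0 peak of the gene (563.83, percentile 77.1), peaks of 164.21 and 1541.96 at day 9 (percentiles 31.1 and 87.3), and a peak of 1279.52 at day 28 (percentile 83.2). Its nearest protein-coding start was that of Mef2d. A region in intron 10 had a peak at day 9 alone (531.55, percentile 68.5).

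Mef2a had peaks at its promoter, at a distal upstream site and along a long gene. The gene lies on the minus strand at chr7:74376049-74517744, with 3 start sites at 0, 55.938 and 75.426 kb from its first base. Its 181.696 kb window held 3, 6 and 8 peaks at days 0, 9 and 28 in 8 regions. Per 100 kb this came to 1.65, 3.30 and 4.40 peaks, densities above those of 49.4%, 48.7% and 68.5% of genes at days 0, 9 and 28. Mef2a was the only member with more peaks at day 28 than at day 9, an order that turned at a minimum score of 500, with 3 peaks at day 9 and 2 at day 28.

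The promoter region of Mef2a, chr7:74516781-74519234, was occupied at every stage. The peak over the first start site scored 709.85 at day 0 (percentile 83.6), 3100 at day 9 (percentile 97.4) and 3100 at day 28 (percentile 97.8). A second peak lay 1.21 kb upstream at day 9 (196.25, percentile 38.9) and 1.27 kb upstream at day 28 (440.27, percentile 58.2). The other 2 start sites of Mef2a had no promoter peak in any list.

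The region 18.2 kb upstream of Mef2a, chr7:74535475-74536355, had peaks on all 3 days. Its peaks scored 617.37 at day 0 (percentile 80.0), 2340.36 at day 9 (percentile 92.6) and 1806.47 at day 28 (percentile 89.3). TGTGGT lay 44 bp from the centre of the day 9 peak, as marked in the sequence above.

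Region 5 of Mef2a, named for its pattern after its values were seen, lay in intron 2 at chr7:74465113-74465939, 3.72 kb upstream of the second start site. It had peaks at day 0 (592.54, percentile 78.7) and day 28 (354.75, percentile 52.1) and none at day 9, a pattern held by 2.06% of all regions and by no other member region. TGTGGT lay 14 bp from the centre of its day 0 peak, and both of its peaks had a copy within 50 bp of the centre.

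Toward the 3′ end of Mef2a, a region in intron 10 had peaks of 1323.63 at day 9 (percentile 85.1) and 448.61 at day 28 (percentile 58.7). It lay 135 kb from the first base of Mef2a, and the nearest start site was that of Lysmd4, the next gene. Past the end of Mef2a, 1 region covered the divergent starts of Lysmd4 and the lincRNA 1700112J16Rik at days 9 and 28, and another lay close by at day 28 alone. The 2 regions not yet named were weak, with a day 28 peak at percentile 4.76 upstream and a day 9 peak at percentile 22.9 in intron 1.

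Mef2c had no Runx2 peak at day 0 and only intronic peaks later. It spans chr13:83643033-83806684 on the plus strand with start sites at 0 and 20.943 kb, and its 203.652 kb window, the longest of the 7, held 6 peaks at day 9 and 4 at day 28 in 6 regions. Among genes with a body of at least 100 kb, 73.4% had a peak in the window at day 0. The nearest day 0 peak to the Mef2c body lay 43.958 kb upstream. At 2.95 and 1.96 peaks per 100 kb, Mef2c was denser than 46.4% of genes at day 9 and 44.1% at day 28.

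Neither start site of Mef2c had a promoter peak in any list, and the region nearest to one was 20 kb away. The highest-ranking site was in intron 4, chr13:83736668-83737351, with a peak of 950.83 at day 9 (percentile 79.7) and one of 166.44 at day 28 (percentile 25.1). A site in intron 7, chr13:83788521-83789101, scored 339.84 at day 9 (percentile 57.6) and 205.52 at day 28 (percentile 33.5). The other two Mef2c regions with peaks on both days were at percentiles 48.9 and 54.7 of the day 9 list and 8.11 and 13.7 of the day 28 list.

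The other 2 Mef2c regions were narrow neighbours in intron 2, at chr13:83705022-83705362 and chr13:83705402-83705627, with day 9 peaks of 192.67 (percentile 38.1) and 535.98 (percentile 68.7). All day 28 peaks of Mef2c were below percentile 50 of their list, and 4 of its 6 day 9 peaks were above percentile 50 of theirs.

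**Figure D2:**
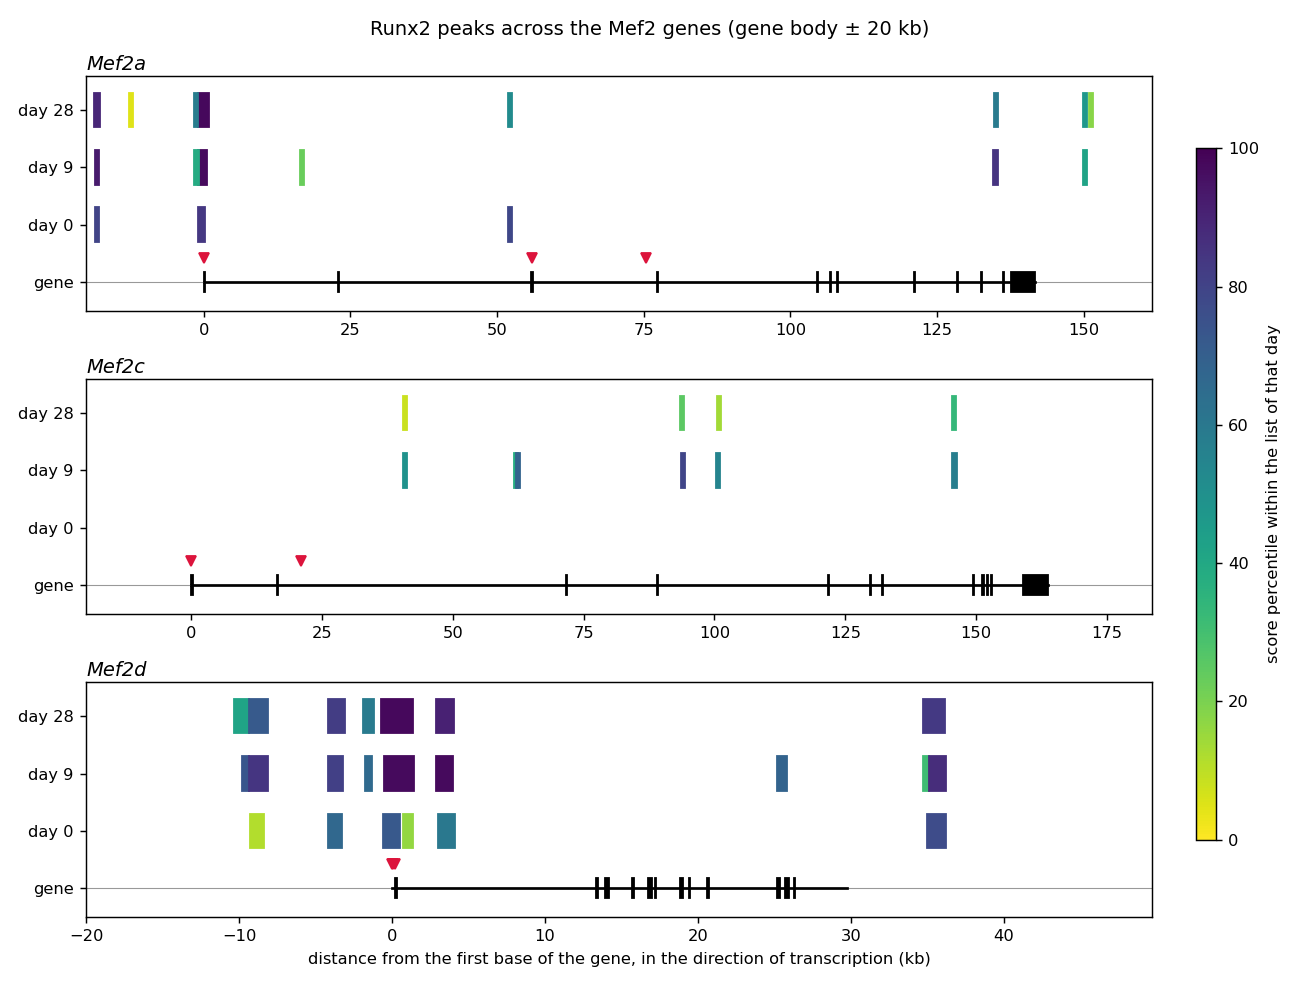
Runx2 peaks across Mef2a, Mef2c and Mef2d by distance from the first base of the gene in the direction of transcription (kb), with a row for each day and a gene row with exons (black) and annotated start sites (red triangles). Boxes are centred on peaks, narrow ones are drawn wider than true so that they can be seen, and colour gives the score percentile within the list of that day. Mef2d is occupied around its start on all days, Mef2a at its start and 18.2 kb upstream, and Mef2c has no box at day 0 or near a start.

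**Figure D3:**
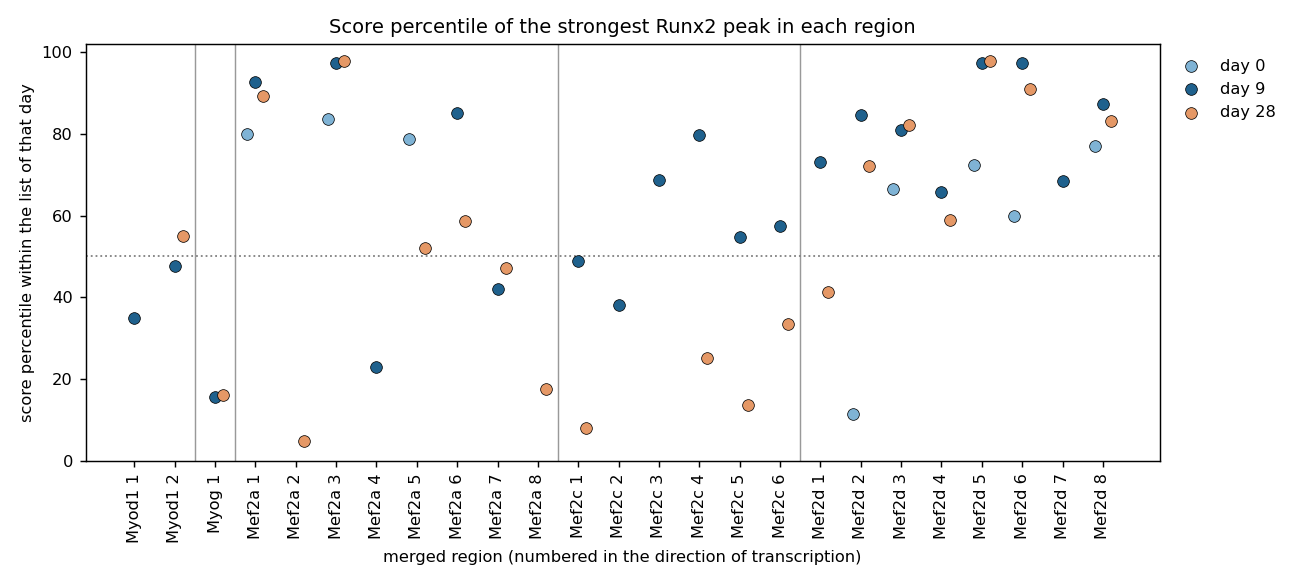
Score percentile of the highest peak in each of the 25 regions (vertical axis, percentile within the list of that day) by region, numbered within a gene in the direction of transcription, with a point for each day that has a peak and a dotted line at percentile 50. At day 28 the Mef2c points all lie below 50, while the start regions of Mef2a (3) and Mef2d (5) lie at 97.8.

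The myogenic bHLH genes are short, from 1.87 kb for Myf6 to 3.227 kb for Myf5, and peaks were fewer in short windows in general. Of genes with a body of at most 5 kb, 41.4% had a peak in the window at day 0, 53.9% at day 9 and 47.4% at day 28, where the bHLH genes had 0 of 4, 2 of 4 and 2 of 4. No bHLH gene had a peak over its body or promoter in any list. A promoter, counted here as the 1000 bp before a start site and the 150 bp after it, had a peak in 42.7%, 51.6% and 50.1% of all genes at days 0, 9 and 28, and in 2 of the 7 members, Mef2a and Mef2d, on each day.

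Myod1, a factor that commits cells to muscle, lies at chr7:53631844-53634462 on the plus strand. Its window held 2 peaks at day 9 and 1 at day 28, all downstream. The nearer region, chr7:53642677-53643299, had a day 9 peak of 178.84 (percentile 34.9) 11.1 kb from the start of Myod1, but closer to the start of Kcnc1, a potassium channel gene. The second, chr7:53651639-53652513, covered the Kcnc1 start itself through its day 28 peak of 391.63 (percentile 55.0). Its day 9 peak of 247.88 (percentile 47.7) began just past that start.

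When each peak was given to the gene with the nearest protein-coding start, no peak was left to Myod1. Upstream of Myod1, the nearest peak lay 342.354 kb away at day 0, 234.24 kb at day 9 and 342.313 kb at day 28. The density of 4.69 peaks per 100 kb at day 9, above that of 59.3% of genes, thus came from peaks beside or nearer to Kcnc1.

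Myog, which drives the terminal differentiation of myoblasts, lies at chr1:136186581-136189124 on the plus strand. Its only region, chr1:136198918-136199531, was 12.6 kb downstream, inside the body of Ppfia4 and nearest to the Myog start. The peaks there were among the weaker of their lists, at 124.43 at day 9 (percentile 15.6) and 136.87 at day 28 (percentile 16.2). At a minimum score of 200 this region dropped out on both days.

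Myf5 and Myf6 form a linked pair on the minus strand, at chr10:106919964-106923190 and chr10:106929916-106931785, their bodies 6726 bp apart, so that their windows overlap. No peak of any list fell in either window. Of genes with a body of at most 5 kb, 43.6% had none in any list. The nearest peaks to the Myf5 body at day 28 were 446.288 kb upstream and 277.186 kb downstream, and at day 9 they were 123.412 kb and 44.595 kb away.

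Within 150 kb of the first base on either side, Myod1 had 0, 7 and 1 peaks at days 0, 9 and 28, Myf5 and Myf6 had the same 1, 2 and 0, and Myog had 3, 12 and 5. The median over all protein-coding genes was 5, 10 and 7 peaks, and 17.2%, 10.4% and 14.5% of genes had none. The peaks around Myog were strongest near other genes, up to 3100 at days 9 and 28 at the start of Adipor1, about 125 kb downstream. All 7 day 9 peaks around Myod1 lay downstream of it.

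**Figure D4:**
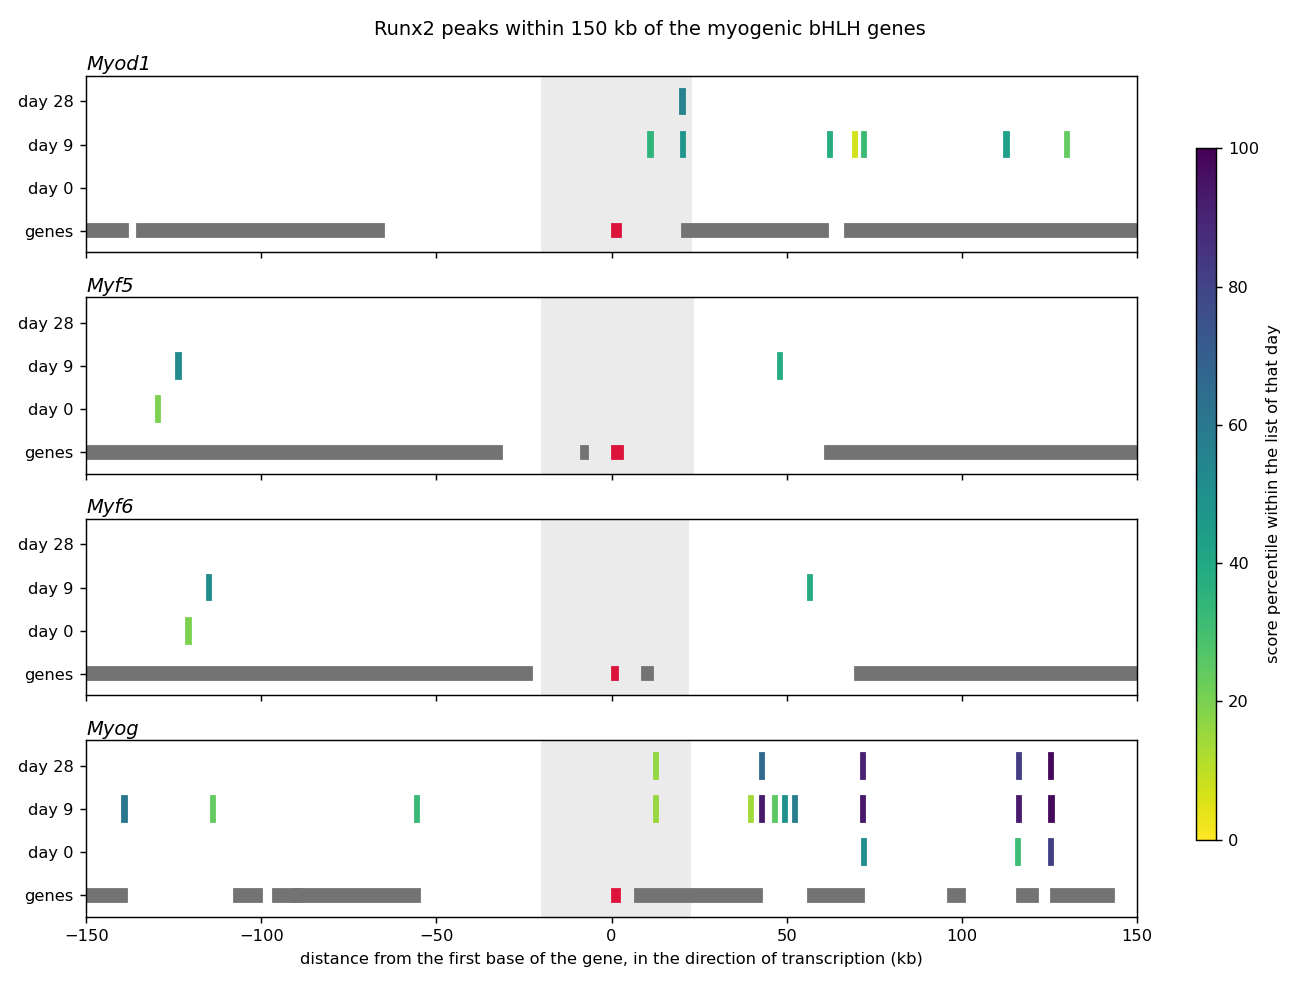
Runx2 peaks within 150 kb of the first base of Myod1, Myf5, Myf6 and Myog (kb, in the direction of transcription), with a row for each day, colour for the score percentile within that list, the gene itself in red, other protein-coding genes in grey, and the window of the body ± 20 kb shaded. Boxes are drawn wider than the peaks. The shaded windows hold peaks only downstream of Myod1 and Myog, at days 9 and 28, and the Myf5 and Myf6 rows show the same peaks.

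Over all 25 regions, 10 had peaks at days 9 and 28 but not at day 0 (40% against 21.1% of all regions), and 7 had peaks on all 3 days (28% against 27.4%). A further 5 had a peak at day 9 alone (20% against 34.5%), 2 at day 28 alone (8% against 7.59%) and 1 at days 0 and 28. None had a peak at day 0 alone, a class that held 5.60% of all regions. The regions present on all 3 days belonged to Mef2d (5) and Mef2a (2).

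Counted by gene, Myod1, Myog and Mef2c each had peaks in the window at days 9 and 28 and none at day 0. This held for 7.40% of protein-coding genes. With the windows widened to 50 kb, Mef2c had 2 day 0 peaks and left this group. It also left at a minimum score of 500 and at equal list length, with 0, 2 and 0 peaks in both. Myod1 left with windows of 10 kb (0, 1 and 0), with equal list length (0, 0 and 1), at a score of 500, with the gene body alone and when peaks were given to the nearest start. Myog left at scores of 200 and 500, at equal list length and with the gene body alone.

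By the position of their centres, 12 regions were intronic, 6 upstream, 6 downstream and 1 in a promoter, and none was centred in a coding exon. The intronic regions were 6 of Mef2c, 3 of Mef2a and 3 of Mef2d. The nearest protein-coding start belonged to a member for 20 regions and to another gene for 5, which were 2 of Myod1 and 3 of Mef2a. From the nearest start site of their own gene, 6 regions were more than 50 kb away.

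A minority of member peaks carried the Runx core at their centre, as did a minority of all peaks. TGTGGT, on either strand, lay within 50 bp of the centre in 1 of 9 member peaks at day 0 (11.1%, exact Clopper-Pearson 95% interval 0.281% to 48.2%), 2 of 24 at day 9 (8.33%, 1.03% to 27.0%) and 3 of 21 at day 28 (14.3%, 3.05% to 36.3%). Among all peaks, the shares were 16.0%, 25.3% and 20.9%. The intervals cover counting error only, treat peaks as independent although peaks of 1 region share their sequence, and held the share of all peaks at days 0, 9 and 28.

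Every member peak with a central core was at Mef2a, in the upstream region, the promoter region, intron 2 and the last region near Lysmd4. Within 100 bp of the centre, TGTGGT lay in 22.2%, 20.8% and 38.1% of member peaks at days 0, 9 and 28. The shares of all peaks were 27.1%, 37.4% and 33.1%. Anywhere in the peak, TGTGGT was found in 66.7%, 45.8% and 66.7% of member peaks at days 0, 9 and 28, and in 61.4%, 58.7% and 61.6% of all peaks. The peak lists hold no summits, so the centre of a wide peak such as that over the Mef2d start may lie away from the point of highest signal.

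The Mef2a window held 125 copies of TGTGGT, of which 14 were in the 7.246 kb of its regions, the Mef2c window 128, of which 5 were in 2.736 kb, and the Mef2d window 58, of which 6 were in 9.691 kb. Per kb of region this was 1.93 copies at Mef2a, 1.83 at Mef2c and 0.619 at Mef2d, against 0.688, 0.629 and 0.832 per kb of the whole windows. The windows of Myod1 and Myog held 39 and 35 copies, none of them in the 1.498 and 0.614 kb of their regions. Per kb, the windows held from 0.463 copies (Myf5) to 0.915 (Myod1), where the median window held 0.838. Promoters of 300 bases held TGTGGT at 15.3% of all protein-coding genes, and the Myf5 copy printed above lay 46 bp before the start site.

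The Mef2a and Mef2d promoters held 62.3% and 72.0% G or C and 27 and 24 CG dinucleotides. Among the members without a promoter peak, the share of G or C ran from 35.7% at the first Mef2c promoter to 65% at Myod1, above that of Mef2a, and CG dinucleotides from 1 to 13. CAGCTG, an E-box form that myogenic bHLH dimers bind, lay within 50 bp of the centre in 0 of 9, 2 of 24 and 0 of 21 member peaks at days 0, 9 and 28, against 7.44%, 8.99% and 9.88% of all peaks.

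MEF2-type elements were searched after the sequences of the regions had been seen, since the pattern stood out there. The element, CTA, 4 bases of A or T, and TAG, which reads the same on both strands, occurred in 4 of the 25 member regions (16%, exact 95% interval 4.54% to 36.1%) and in 906 of 67703 regions overall (1.34%). These 4 are 1 of Mef2a, 2 of Mef2c and 1 of Mef2d, so each Mef2 gene had a Runx2-occupied region with an element of the kind its own protein family binds. Since the search was prompted by these sequences, and regions differ in length, the counts describe them and support nothing further.

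The Mef2a element is that in the promoter printed above, and elements of this form were present in 0.478% of all promoters. The other 3 are printed in the direction of the gene with 20 bases on each side and the element in capitals, at chr13:83705133-83705182 and chr13:83789056-83789105 in Mef2c and at chr3:87944695-87944744, about 1.57 kb upstream of Mef2d.
Mef2c intron 2: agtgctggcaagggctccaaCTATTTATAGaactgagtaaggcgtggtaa
Mef2c intron 7: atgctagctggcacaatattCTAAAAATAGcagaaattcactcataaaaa
Mef2d upstream: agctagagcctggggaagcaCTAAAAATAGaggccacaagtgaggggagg

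The intron 2 element of Mef2c lay under a peak at day 9 alone. The intron 7 element lay wholly within the day 28 peak of its region, while the day 9 peak ended inside the element. The element upstream of Mef2d lay within the peaks of days 9 and 28. The windows of the 3 genes held 6 elements at Mef2a, 12 at Mef2c and 3 at Mef2d, most of them under no peak. The bHLH windows held 2 at Myod1, 5 at Myf5, 3 at Myf6 and 0 at Myog, none in a region.

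Genes that act with the members are set here beside all protein-coding genes, of which 64.9%, 76.9% and 71.2% had a peak in the window and 42.7%, 51.6% and 50.1% a promoter peak at days 0, 9 and 28. The lists are small, their windows differ in length, and no difference from all genes was tested. Of 11 dimer partners and inhibitors of the myogenic bHLH factors, 10 had a peak at day 0, 11 at day 9 and 10 at day 28, with promoter peaks at 8, 8 and 9. Tcf3, which encodes the E-protein partners E12 and E47, had 4, 14 and 5 peaks at days 0, 9 and 28. Id3, an inhibitor that sequesters E-proteins, had 6, 9 and 5 in the window of a body of 2.259 kb. Twist1, which blocks MyoD activity, had 3 on each day. Msc (musculin) had a peak at day 9 alone.

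Mef2b and 9 Mef2 cofactors or kinases all had peaks on all 3 days, and 7, 8 and 8 of these 10 genes had promoter peaks at days 0, 9 and 28, against 42.7%, 51.6% and 50.1% of all genes, with bodies of up to 481.304 kb. The class IIa histone deacetylases, which hold Mef2 targets silent, were among them. Hdac7 had 12, 18 and 17 peaks, Hdac5 had 8, 13 and 8, and Hdac4 had 7, 20 and 9, in windows set by bodies of 51.839, 35.735 and 215.637 kb. Hdac9, with a body of 481.304 kb, had 1, 3 and 4. The kinases Mapk7 and Mapk14, which activate Mef2 proteins, had 2, 6 and 6 peaks and 2, 3 and 4 peaks.

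Of 9 upstream regulators of the myogenic genes, 7 had a peak at day 0 and all 9 at days 9 and 28, where all genes had 64.9%, 76.9% and 71.2%. Pax3, which acts above Myf5 and Myod1 in the somite, had 8, 10 and 8 peaks at days 0, 9 and 28. Pax7, the marker of muscle satellite cells, had 0, 5 and 1, and Eya2, a transcriptional cofactor, had 1, 15 and 13.

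Of 18 skeletal muscle genes, 11 had a peak at day 0, 14 at day 9 and 13 at day 28, shares near those of all genes. Promoter peaks were found at 1, 3 and 3 of them, where 42.7%, 51.6% and 50.1% of all genes had one, a difference that was not tested. The 4 without a peak in any list were the myosin heavy chain genes Myh1, Myh2, Myh4 and Myh8, while Myh3, the embryonic form, had 1, 2 and 2. Among the 5 troponin genes the counts ran from 1, 1 and 3 at Tnnt3 to 5, 8 and 7 at Tnni1, with none at day 0 at Tnni2. Desmin (Des) had 0, 6 and 3, and muscle creatine kinase (Ckm) had 0, 2 and 0.

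**Figure D5:**
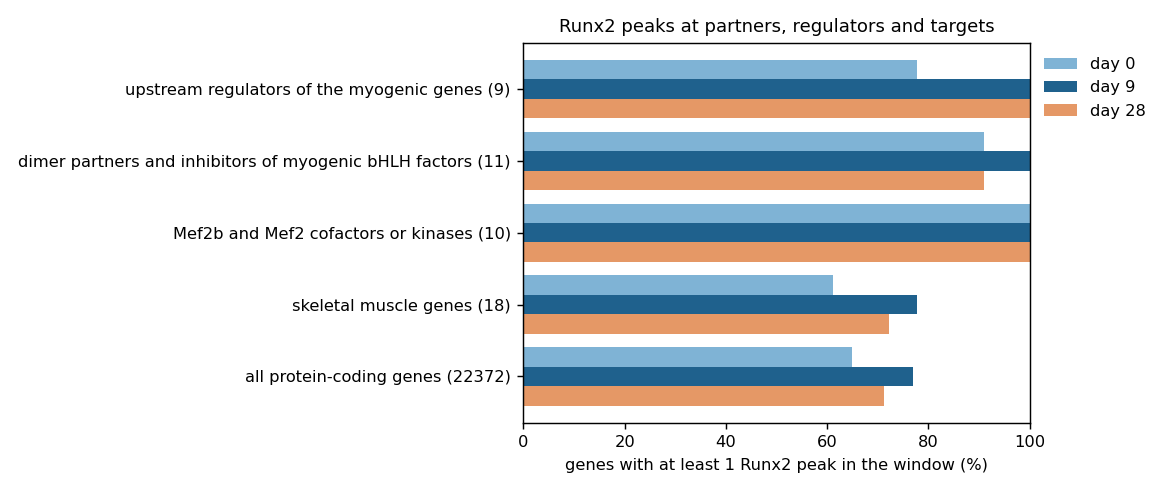
Share of genes with at least 1 Runx2 peak in the window (%, gene body ± 20 kb) in the 4 lists of related genes and in all protein-coding genes at days 0, 9 and 28, with the number of genes in parentheses and no error, as each day has 1 pooled list. All 10 genes of Mef2b and cofactors have a peak on every day, and the skeletal muscle genes lie near all genes.

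Genes with the most similar peak counts were sought for the 3 Mef2 genes. Mef2a shared its 3, 6 and 8 peaks with 6 other protein-coding genes, of which Mtor, Iqgap3 and Socs2 had windows closest in length. Mef2c shared 0, 6 and 4 with 4 genes, among them Gucy2d, 1810011H11Rik and Ysk4, and Mef2d shared 6, 9 and 7 with 11, among them Pip4k2b, 6330416G13Rik and Flna. The likeness is the summed difference in peak counts over the 3 lists, which was 0 for each of these genes. It takes no account of window length, so peaks per 100 kb can differ. The genes named for Mef2c had windows of 65.02 to 73.872 kb, against 203.652 kb for Mef2c. Those named for Mef2a had 71.819 to 149.073 kb, against 181.696 kb. Those named for Mef2d had 66.36 to 69.548 kb, against 69.715 kb.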

How the data were processed

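The authors aligned reads to mm9 with Bowtie (version 0.12.8) after base calling with CASAVA (version 1.6), pooled the 2 replicate libraries of each day, ran MACS (version 1.4.1) with its defaults and day 9 input DNA as control, and kept those peaks whose p-value was under 1e-10. The deposited lists give each peak's start, end and score, the authors' 10 times negative log10 of the p-value, and no read counts, so depth behind a peak is unknown from them. The input sample was not used here.

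Gene bodies were those of GENCODE version M1 on NCBIM37, on which all peaks lay within the chromosome ends. Coordinates are counted from 1. All 7 members were named. Regions were described singly when they held a member's highest-ranking peak in a list, overlapped its promoter, had peaks in all 3 lists or were nearest to a bHLH start site, and others that are named were chosen after their values were seen. Genes alike in peak counts were sought for members with at least 5 regions. The members, gene lists and search rules were chosen with earlier results of these data known. The scripts ran in Python 3.11.15 with SciPy 1.17.1 and NumPy 2.4.6, plots were drawn with Matplotlib 3.10.9, and the functions were tested on simulated data. No test compared days. Alternatives covered the score, the window, the merging of peaks, list length and the motif window. The values of 1 gene of the related lists are not reported here.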

Additional observations from a re-analysis of the deposited data

How the results depend on the processing

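Of 68 values of 8 results under the alternatives, 49 stayed within 1.5 times the count given above (or, for the share of peaks with the core, within its 95% interval) and 19 did not. No alternative left out a replicate, because the authors pooled the replicates before calling peaks. No paired analysis was possible because each day has 1 list and no test was made. Day 9 had more member peaks than day 0 in 10 of 10 settings, the main setting included. Only the setting with equal list length takes away the greater length of the day 9 list. It gave 9 peaks at day 0 and 13 at day 9. The other settings cannot tell this order from list length.

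With a score of at least 500 (1e-50), the member peaks were 4, 12 and 7 at days 0, 9 and 28, members with a peak were 3 at day 9 and 2 at day 28, and 13 regions remained in all. With the gene body alone, the peaks were 5, 12 and 9, members with a peak were 3 at both later days, and the regions were 13. Both settings left no peak at a bHLH gene. With the window widened to 50 kb, the peaks were 37 at day 9 and 32 at day 28, in 42 regions. With the 25457 top-scoring peaks of each list, 13 peaks were left at day 9 and 14 at day 28, which turned the order of these days, and 3 members had a peak at day 9 and 3 at day 28. The share of day 9 member peaks with TGTGGT was 45.8% when the core was counted anywhere in the peak. These settings keep fewer or more peaks, wider windows or longer sequences by construction. Depth is not recorded in the lists, so a window without a peak holds no peak past the authors' threshold, which does not show that Runx2 was absent.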
